A study of Rattus norvegicus with 6 samples.

Results

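The 10 genes described here carry glucose into the cell and through glycolysis. They comprise 2 glucose transporters, Slc2a1 and Slc2a3, 2 hexokinases, Hk1 and Hk2, the regulator Pfkfb3, and the enzymes Aldoa, Gapdh, Pgk1, Eno1 and Ldha. They were chosen by gene symbol from the platform annotation, out of 15037 genes on the array, and each has 1 probeset. All 10 passed the filter on dim signal that left 11515 genes for testing. The knockout group comprised IL-33 knock-out rats 28 and 27, which were female, and 52, which was male. The wildtype group comprised rats 34 and 45, which were female, and 37, which was male. All were Sprague-Dawley rats, and neither their age nor the design of the Il33 deletion is given in the sources used here. Abdominal skin was digested with collagenase I and DNAse I for 2 h at 37 °C, CD45-bearing cells and Lyve-1-bearing lymphatic endothelium were removed on magnetic columns, and the CD31-bearing blood vessel endothelium was kept. Each array measured 1 animal.

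Glucose enters most cells through facilitative transporters of the SLC2 family. Slc2a1 encodes GLUT1, the main transporter of endothelium at the blood-brain barrier and of many proliferating cells, and Slc2a3 encodes GLUT3, a high-affinity transporter best known from neurons, platelets and leukocytes. Hexokinase then phosphorylates glucose, phosphofructokinase commits it to glycolysis, and lactate dehydrogenase closes the path when pyruvate is turned into lactate. In mice and in human cells, endothelium draws much of its ATP from glycolysis, and PFKFB3 sets the pace of the path during vessel sprouting. Many of these genes are textbook targets of the hypoxia-inducible factors, which bind a short core motif in promoters and enhancers.

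That core was searched as ACGTG on both strands in the RefSeq promoter windows of build GRCr8, which run from 250 bases before to 50 bases after each annotated start. Of the 10 genes 8 had a window, and 7 of these 8 held the core in at least 1 window, against 20.93% of the 27457 genes in the table. Over windows it was 7 of 12, against 19.25% of all 33469. The windows of these genes were richer in G and C, with a median of 63.2% against 51.7% for all windows, and no adjustment was made for this. The windows of Slc2a1, Ldha and Gapdh are shown because all 3 genes were higher in each array of low than in each array of high spike-in signal, a split described below, and that of Pfkfb3 because it holds the same core without that order. Capitals mark the core, read on the strand of the gene as ACGTG or, from the opposite strand, as CACGT; where both overlap the capitals run together. A match describes these letters and does not show binding.
Slc2a1, chr5:138002272-138002571, plus strand: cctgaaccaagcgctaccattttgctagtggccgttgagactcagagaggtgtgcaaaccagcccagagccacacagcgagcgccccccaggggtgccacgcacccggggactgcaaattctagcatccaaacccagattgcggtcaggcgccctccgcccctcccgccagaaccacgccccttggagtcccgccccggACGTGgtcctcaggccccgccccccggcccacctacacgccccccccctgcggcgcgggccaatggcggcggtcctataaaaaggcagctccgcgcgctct
Ldha, chr1:106507842-106508141, plus strand: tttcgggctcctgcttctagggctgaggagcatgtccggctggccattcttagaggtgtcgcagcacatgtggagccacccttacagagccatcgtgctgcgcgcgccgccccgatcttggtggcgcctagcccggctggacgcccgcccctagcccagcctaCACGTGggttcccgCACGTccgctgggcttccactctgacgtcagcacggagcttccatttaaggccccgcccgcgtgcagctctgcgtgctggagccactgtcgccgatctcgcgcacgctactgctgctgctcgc
Gapdh, chr4:159652418-159652717, minus strand: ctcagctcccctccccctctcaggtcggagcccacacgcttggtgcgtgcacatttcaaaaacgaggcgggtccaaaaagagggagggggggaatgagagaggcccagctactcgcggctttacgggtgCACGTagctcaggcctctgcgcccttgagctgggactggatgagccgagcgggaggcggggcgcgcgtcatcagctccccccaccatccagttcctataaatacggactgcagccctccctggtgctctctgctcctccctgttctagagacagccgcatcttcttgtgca
Pfkfb3, chr17:71944683-71944982, plus strand: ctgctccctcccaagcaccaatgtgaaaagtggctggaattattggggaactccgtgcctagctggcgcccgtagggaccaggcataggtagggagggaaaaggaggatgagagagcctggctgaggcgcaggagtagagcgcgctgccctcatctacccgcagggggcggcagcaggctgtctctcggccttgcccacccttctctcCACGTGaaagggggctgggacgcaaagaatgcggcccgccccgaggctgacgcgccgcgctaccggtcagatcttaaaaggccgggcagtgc
Slc2a1 held 1 match, at base 200 of its window, and Gapdh 1, at base 130. Pfkfb3 and Ldha each held a palindrome read on both strands, and Ldha a further match at base 178. Hk1, Aldoa and Eno1 held the core in 1 of several windows, and Hk2 held none in its window. A missing match says only that these letters are not in that window.

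Values are log2 expression after the authors' RMA processing, so a difference of 1 is read as a factor of 2. The highest value is 19.93, which is high for RMA, and the scale could not be checked against other files. The levels of different probesets are not comparable with each other, and each gene was therefore compared with itself across arrays. Il33 gave 8.07, 8.37 and 9.82 in knockout 28, 27 and 52, against 13.86, 16.32 and 16.60 in wildtype 34, 45 and 37. The knockout labels thus fitted the targeted gene in every array, with a difference of -6.84 (SE 0.73, limma adjusted p = 0.0439). Il33 was the only gene of 11515 called between genotypes, or 0.00868%. Without knockout 28, 27 or 52, or without wildtype 45 or 37, no gene was called. Markers of blood endothelium had medians of 15.12 to 15.23 in the knockout and 14.76 to 15.21 in the wildtype over the 13 markers measured of 14 listed. Of the other cell types, keratinocyte markers varied most between arrays, with medians of 8.07 to 11.56 in the knockout and 7.96 to 15.11 in the wildtype (7 measured of 14 listed). Signal of a gene in sorted cells can differ because fewer cells of a type were present or because each held less RNA, and these cannot be told apart here. The 8 probesets of spiked-in control transcripts had array means of 8.82 to 9.33 in knockout 27, knockout 52 and wildtype 37, and of 10.12 to 10.42 in knockout 28, wildtype 34 and wildtype 45. These are called arrays of low and of high spike-in signal below; neither the labels nor the table gives a scan or preparation batch.

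Loss of Il33 was compared with wildtype to ask whether genes of glucose uptake and glycolysis change in dermal blood endothelium. None of the 10 genes was called, 0 of 10 had an unadjusted limma p under 0.05, where 1.97% of all genes did, and every gene's adjusted p was 0.999. In no gene did all 3 knockout arrays lie above all 3 wildtype arrays, an order seen in 3.36% of all genes, and in none did they all lie below, as in 2.89% of all genes. The average was higher in the knockout for 8 of the 10 genes and for 54.1% of all genes, with median differences of 0.20 and 0.037 on the log2 scale. That count was 10 without knockout 28, 9 without wildtype 37, 5 without wildtype 34 or 45, and 4 without knockout 52. It was 5 with spike-in class as a block and 2 with the keratinocyte median as a covariate. Within the arrays of low spike-in signal the median difference of the 10 genes was -0.098 (knockout 27 and 52 against wildtype 37), and within those of high signal it was -0.018 (knockout 28 against wildtype 34 and 45).

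**Figure D1:**
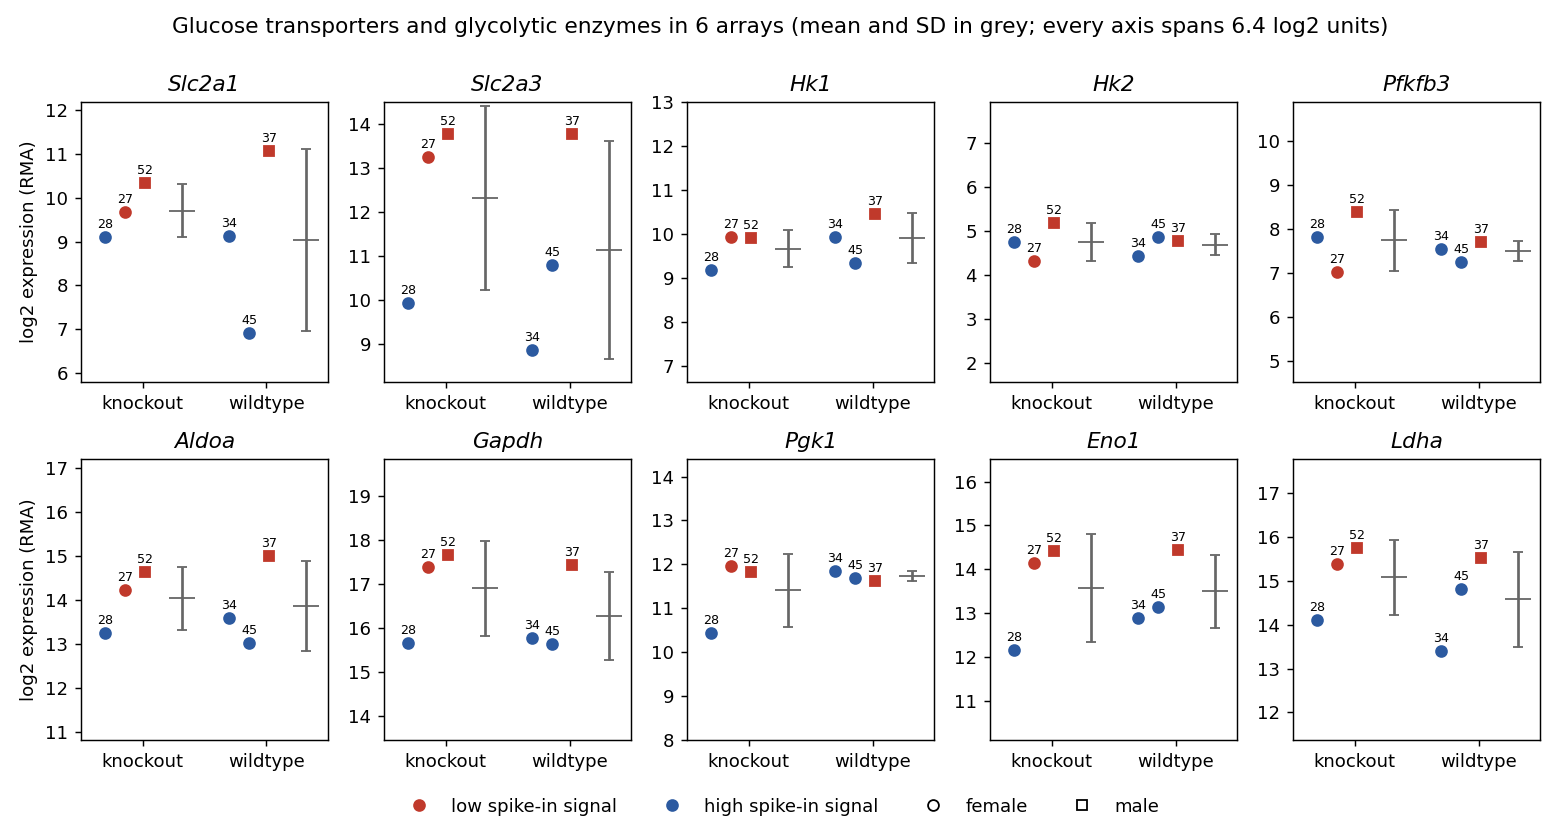
Log2 expression (RMA) of the 10 genes in each array, knockout on the left and wildtype on the right of each panel, with the mean and SD of each genotype (n = 3) in grey. Red points are arrays of low and blue points arrays of high spike-in signal, circles females and squares males; in 6 genes all 3 red points lie above all 3 blue points, and in none do the genotypes separate.

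The glucose transporters had the widest spread of the 10 genes. Slc2a3 (probeset TC0400003694.rn.2) gave 9.92, 13.26 and 13.77 in knockout 28, 27 and 52, against 8.86, 10.79 and 13.78 in wildtype 34, 45 and 37. Each genotype thus held both low and high animals, and the groups overlapped over most of their range. Slc2a3 averaged 12.32 ± 2.09 in the knockout and 11.14 ± 2.48 in the wildtype (SD, n = 3 each). The difference was 1.17 (SE 1.25, 95% interval -1.62 to 3.97), within the spread between animals, and its SD over the 6 arrays stood at the 99.8th percentile of all genes tested. Slc2a1 (TC0500001342.rn.2) gave 9.11, 9.67 and 10.33 in knockout 28, 27 and 52, against 9.13, 6.92 and 11.06 in wildtype 34, 45 and 37. Its lowest and its highest value were both in the wildtype, and the 3 knockout arrays lay between them. Slc2a1 averaged 9.70 ± 0.61 in the knockout and 9.04 ± 2.07 in the wildtype (SD, n = 3 each), a difference of 0.67 (SE 0.86, 95% interval -1.26 to 2.59), and without wildtype 45 it was -0.39. Its SD over the 6 arrays stood at the 99.0th percentile.

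The animal with the lowest Slc2a1 was not the one with the lowest Slc2a3. As deviations from each gene's own mean over the 6 arrays, wildtype 45 had -2.45 for Slc2a1 and -0.94 for Slc2a3. In wildtype 34 the order was turned, at -0.24 for Slc2a1 and -2.87 for Slc2a3. Knockout 28 had -0.26 for Slc2a1 and -1.81 for Slc2a3. In knockout 27, knockout 52 and wildtype 37 both transporters lay above their means, Slc2a1 by 0.30, 0.96 and 1.69 and Slc2a3 by 1.53, 2.04 and 2.05. The within-array difference Slc2a1 minus Slc2a3 ranged from -3.87 in wildtype 45 to 0.27 in wildtype 34. It averaged -2.61 ± 1.56 in the knockout and -2.11 ± 2.14 in the wildtype (SD, n = 3 each). The genotypes differed by -0.51 in this quantity, less than its spread between animals (exact two-sided permutation test, p = 0.7, where 0.1 is the smallest p that 3 against 3 allows). Without wildtype 34 this difference was 0.68, and without knockout 28 or wildtype 45 it was -1.41 or -1.39, so its sign and size rested on single animals. Across the 6 arrays Pearson's r between the transporters was 0.61, as a description of arrays that also share their spike-in class.

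**Figure D2:**
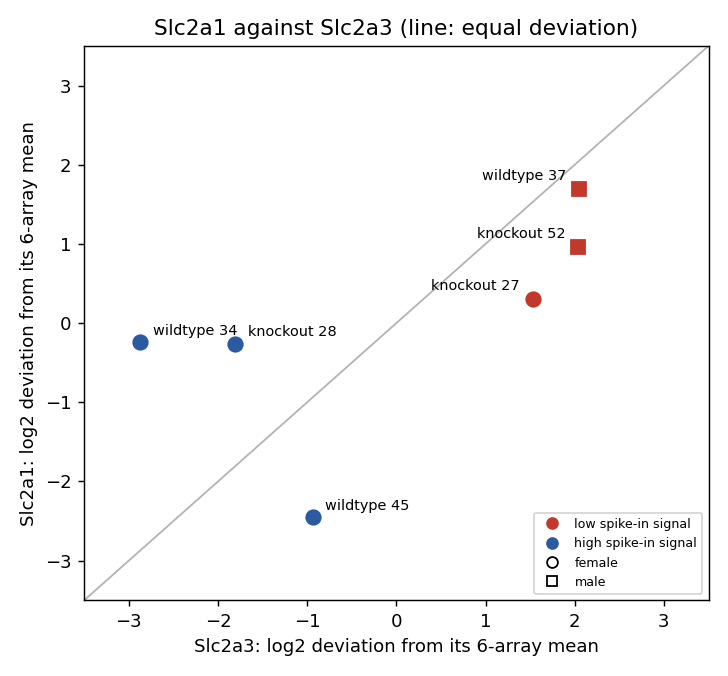
Deviation of Slc2a1 (vertical axis) from its mean over the 6 arrays against that of Slc2a3 (horizontal axis), both in log2 units, 1 point an array, with colours and shapes for spike-in class and sex; the line marks equal deviation. Wildtype 34 and knockout 28 lie left of the line, with Slc2a3 deviations of -2.87 and -1.81, and wildtype 45 lies below it, with a Slc2a1 deviation of -2.45.

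Of the hexokinases, which trap glucose in the cell, Hk1 had an SD over the 6 arrays close to that of the median gene (0.468 for both), and Hk2 lay near background. Hk1 gave 9.17, 9.92 and 9.91 in knockout 28, 27 and 52, against 9.92, 9.33 and 10.46 in wildtype 34, 45 and 37. The highest value was in a wildtype and the lowest in a knockout animal, and the other 4 lay between. The difference was -0.24 (SE 0.40, 95% interval -1.13 to 0.65), and it was 0.042 without wildtype 37. Hk2, the inducible hexokinase of muscle and many tumours, gave 4.76, 4.32 and 5.18 in the knockout (28, 27, 52), against 4.42, 4.87 and 4.78 in the wildtype (34, 45, 37). The array medians of the background probesets were 4.55 to 4.73, so these values do not show whether Hk2 was expressed. Its difference of 0.063 (SE 0.35) was smaller than the spread within either genotype.

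Pfkfb3 makes the sugar bisphosphate that activates phosphofructokinase. It gave 7.81, 7.02 and 8.39 in knockout 28, 27 and 52, against 7.55, 7.26 and 7.70 in wildtype 34, 45 and 37. The 3 wildtype values lay inside the range of the knockout values. It averaged 7.74 ± 0.69 in the knockout and 7.50 ± 0.22 in the wildtype (SD, n = 3 each), and the difference of 0.24 (SE 0.40, 95% interval -0.66 to 1.14) was -0.088 without knockout 52.

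Aldoa, the aldolase that splits the phosphorylated sugar, gave 13.24, 14.23 and 14.64 in knockout 28, 27 and 52, against 13.59, 13.01 and 15.00 in wildtype 34, 45 and 37. Gapdh, the dehydrogenase of the following step and a common reference gene in expression assays, gave 15.66, 17.38 and 17.66 in the knockout, against 15.76, 15.63 and 17.43 in the wildtype, in the same order of animals. Gapdh had no value between 15.76 and 17.38, and both genotypes were found on either side of that gap. The genotype difference of Aldoa was 0.17 (SE 0.55, 95% interval -1.07 to 1.41) and that of Gapdh 0.63 (SE 0.63, 95% interval -0.78 to 2.03). Without knockout 52 or wildtype 45 the Aldoa difference was -0.13 or -0.26. Gapdh remained at least 2.27 below the highest value of its array. Whether its values were compressed near the top of the scale was not tested.

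Pgk1, phosphoglycerate kinase, makes ATP in the next step. It gave 10.44, 11.95 and 11.83 in knockout 28, 27 and 52, against 11.85, 11.69 and 11.63 in wildtype 34, 45 and 37. Knockout 28 lay below the remaining 5 arrays, which ran from 11.63 to 11.95 with both genotypes among them. The difference was -0.32 (SE 0.43, 95% interval -1.29 to 0.65), and 0.17 without knockout 28. Eno1, the enolase, gave 12.17, 14.15 and 14.42 in the knockout (28, 27, 52), against 12.89, 13.15 and 14.45 in the wildtype (34, 45, 37). Its lowest value was again in knockout 28, and its difference of 0.083 (SE 0.63, 95% interval -1.33 to 1.49) was -0.065 after a further quantile normalization.

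Ldha encodes the lactate dehydrogenase subunit that favours lactate formation. It gave 14.11, 15.39 and 15.74 in knockout 28, 27 and 52, against 13.40, 14.82 and 15.52 in wildtype 34, 45 and 37. The groups overlapped, with the lowest value in a wildtype and the highest in a knockout animal. Ldha averaged 15.08 ± 0.86 in the knockout and 14.58 ± 1.08 in the wildtype (SD, n = 3 each), a difference of 0.50 (SE 0.59, 95% interval -0.83 to 1.83) that was -0.090 without wildtype 34.

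**Figure D3:**
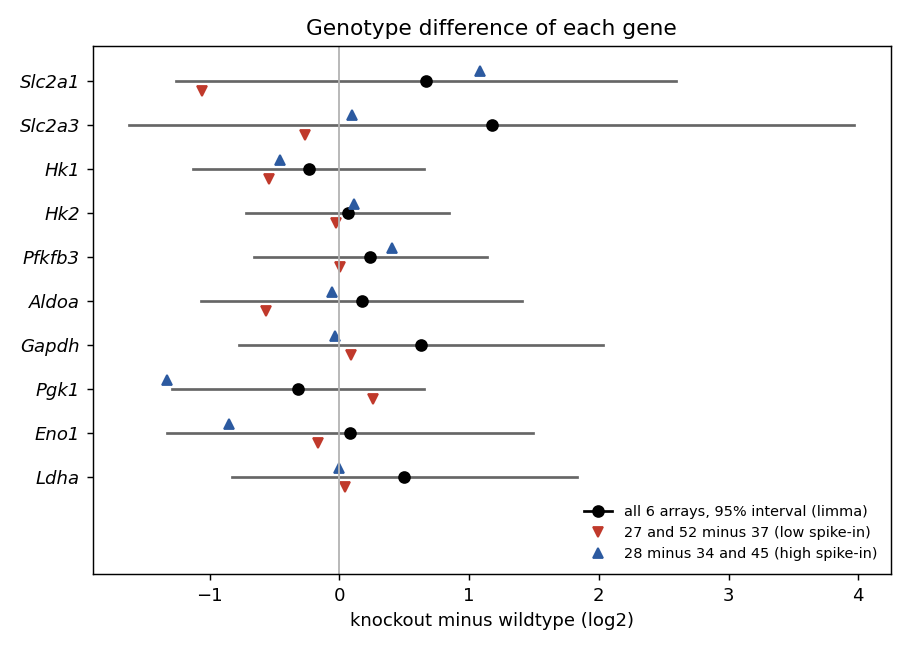
Knockout minus wildtype on the log2 scale for each gene, in the order of the path, over all 6 arrays (black points with limma's 95% intervals), within the arrays of low spike-in signal (red) and within those of high signal (blue). Every interval holds 0, and the differences of 1.17 in Slc2a3 and 0.63 in Gapdh over all arrays are -0.27 and 0.090 in red and 0.095 and -0.035 in blue.

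The genes separated by another line than genotype. In 6 of the 10 genes (Slc2a1, Slc2a3, Aldoa, Gapdh, Eno1 and Ldha) knockout 27, knockout 52 and wildtype 37 all lay above knockout 28, wildtype 34 and wildtype 45, which is the split by spike-in signal. This order was found in 17.3% of all genes, and the opposite order in 7.33% of all genes and in 0 of the 10. The count was 6 after a further quantile normalization and 7 after centring on array medians. The share of all genes with this order was not counted under these scalings. Slc2a3 averaged 13.60 in the arrays of low and 9.86 in those of high spike-in signal, a gap of 3.75. Gapdh averaged 17.49 at low and 15.68 at high signal, a gap of 1.81, and Slc2a1 10.35 at low and 8.39 at high signal, a gap of 1.97. The gaps of Eno1, Ldha and Aldoa were 1.60, 1.44 and 1.34. Hk1 had a gap of 0.62, Pgk1 of 0.48, Pfkfb3 of 0.16 and Hk2 of 0.077, and in these 4 genes the classes overlapped. The median gap was 1.39 over the 10 genes and 0.15 over all genes tested. After a further quantile normalization these medians were 0.999 and 0.057, and after centring 1.48 and 0.24.

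**Figure D4:**
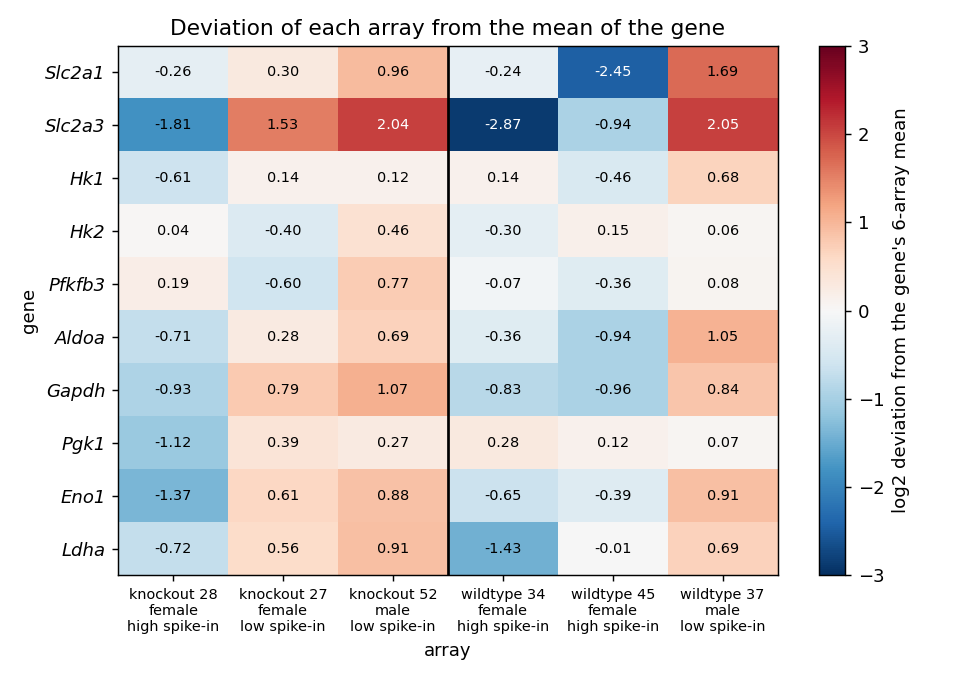
Log2 deviation of each array from the mean of the gene over the 6 arrays (colour scale and printed values), genes in the order of the path and arrays by genotype, knockout left of the line. Knockout 28, wildtype 34 and wildtype 45 are below the mean, and knockout 27, knockout 52 and wildtype 37 above it, in Slc2a1, Slc2a3, Aldoa, Gapdh, Eno1 and Ldha.

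The split held 98.9% of the sum of squares of Gapdh, 91.1% of that of Slc2a3, 87.1% of that of Eno1, 85.3% of that of Aldoa, 74.4% of that of Ldha and 58.0% of that of Slc2a1. The median was 66.2% over the 10 genes and 26.6% over all genes. The split between genotypes held a median of 7.56% over the 10 genes and 9.95% over all. These shares describe the arrays and carry no test, since the split was drawn from the arrays themselves. Keratinocyte markers moved the opposite way with it: their median was 7.96 to 8.44 in the arrays of low and 11.56 to 15.11 in those of high spike-in signal, and 6 of the 7 measured were lower in all 3 arrays of low signal. Of the fibroblast markers 4 of 7 were lower in them, with list medians of 9.06 to 10.37 at low and 10.15 to 12.69 at high signal. Of the pericyte markers 6 of 9 were higher in them, with list medians of 9.73 to 11.40 at low and 8.46 to 11.35 at high signal. Of the blood endothelial markers 4 of 13 were higher in them and 1 lower, with list medians of 15.12 to 15.23 at low and 14.76 to 15.21 at high signal. The part of spike-in signal and of these cell types in the glycolytic values was not tested.

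**Figure D5:**
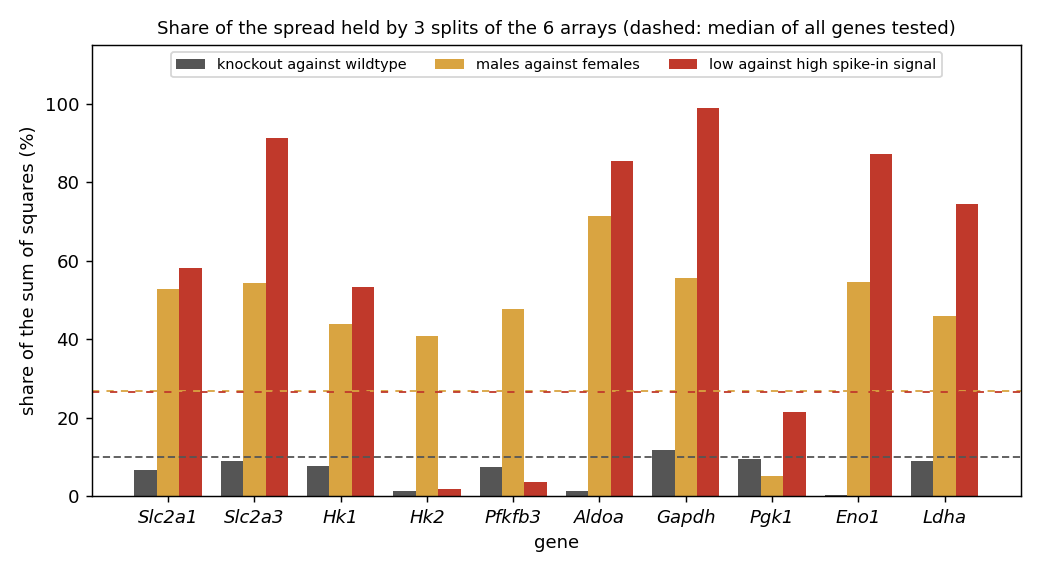
Percent of each gene's sum of squares over the 6 arrays (vertical axis) held by the split of knockout against wildtype, of males against females, and of low against high spike-in signal; the splits overlap, so the bars do not add up, and dashed lines give the medians of all genes tested (9.95%, 26.7% and 26.6%). The bars for spike-in signal reach 98.9% in Gapdh and 91.1% in Slc2a3, while the highest bar for genotype is 11.9%, in Gapdh.

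Sex could only partly be told from this split, since both males were among the arrays of low spike-in signal. Both male arrays lay above all 4 female arrays in 6 of the 10 genes, the same 6 that followed the spike-in split, and in 23.5% of all genes. After a further quantile normalization this held in 5 genes and after centring in 8, scalings under which the share of all genes was not counted. With genotype in the model, Slc2a3 averaged 13.78 in males and 10.71 in females, a difference of 3.07 (SE 0.88, limma adjusted p = 0.146). Slc2a1 averaged 10.70 in males and 8.71 in females (difference 1.99, SE 0.65, limma adjusted p = 0.170) and Gapdh 17.55 in males and 16.11 in females (difference 1.44, SE 0.47, limma adjusted p = 0.170). None of the 10 genes was called, and 6 had an unadjusted limma p under 0.05 on the higher side, where 14.8% of all genes did. Among all genes 2 were called higher in males, the Y-linked Ddx3y and Eif2s3y (0.0174%), and 1 lower, the lymphatic chemokine Ccl21 (0.00868%), named here after their values were seen. Without knockout 27, the female of low spike-in signal, the split by sex is the same as the split by spike-in signal, and the contributions of sex and spike-in class cannot be told apart. In that fit 66 of 11515 genes were called, among the 10 only Slc2a3 (difference 3.91, limma adjusted p = 0.0330). Lymphatic markers moved with sex, 5 of 6 being lower in both males than in all females, with list medians of 5.24 to 7.12 in males and 7.62 to 8.56 in females. Keratinocyte markers were lower in both males for 4 of 7, with list medians of 7.96 to 8.07 in males and 8.44 to 15.11 in females. Of the blood endothelial markers 5 of 13 were higher in both males and 1 lower, with list medians of 15.21 to 15.23 in males and 14.76 to 15.21 in females. Leukocyte markers had list medians of 3.99 to 4.59 in males and 4.66 to 5.35 in females, with 2 of 9 higher and 3 lower in both males. The part of these cell types in the differences between the sexes was not tested. With spike-in class as a block the Slc2a3 difference between the sexes was 0.54 (SE 0.77) and that of Gapdh 0.20 (SE 0.48). Within the arrays of low signal the male mean of Slc2a3 stood 0.52 and that of Gapdh 0.17 above knockout 27. No gene was called for a genotype difference that varied with sex (0% of all genes), and 0 of the 10 had an unadjusted limma p under 0.05 in that test, where 1.03% of all genes did. With 1 male a genotype this test had little precision.

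Other genes of glucose handling were described from lists that exclude the members. Of 46 further tested genes in lists of glucose transport, upper and lower glycolysis, control of the bisphosphate step, and lactate and pyruvate handling, 0 were called by limma. Of these 46, 1 had an unadjusted limma p under 0.05, where 1.97% of all genes did. It was Pgam2, a muscle phosphoglycerate mutase, named after its values were seen. Pgam2 averaged 3.26 in the knockout and 4.14 in the wildtype, both below the medians of the background probesets. The median difference of the 46 genes was 0.082, against 0.037 for all genes. Gpi, the isomerase between hexokinase and phosphofructokinase, gave 15.60, 16.03 and 16.20 in knockout 28, 27 and 52, against 16.16, 16.02 and 16.82 in wildtype 34, 45 and 37 (difference -0.39, SE 0.36). Tigar, a phosphatase that lowers the bisphosphate made by Pfkfb3, gave 4.91, 4.68 and 4.39 in the knockout, against 3.87, 4.30 and 3.88 in the wildtype, in the same order of animals. All its knockout values lay above all its wildtype values, by 0.64 on average (limma unadjusted p = 0.0771, adjusted p = 0.999), at a level close to the background probesets. Pfkfb2, a heart relative of Pfkfb3, averaged 4.75 in the knockout and 5.11 in the wildtype, also close to the background probesets. It differed by -0.36 (SE 0.40).

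Mpc1, a subunit of the carrier that takes pyruvate into mitochondria, gave 8.64, 8.30 and 8.39 in knockout 28, 27 and 52, against 8.77, 9.41 and 9.29 in wildtype 34, 45 and 37. All its knockout values lay below all its wildtype values, by 0.71 on average (SE 0.33, limma unadjusted p = 0.0564, adjusted p = 0.999), so it did not pass. Of the 46 genes 1, Mpc1, had this order, where 2.89% of all genes did. The opposite order was found in 1, Tigar, and in 3.36% of all genes. Bsg, the chaperone of lactate transporters, gave 9.91, 11.12 and 12.12 in the knockout, against 10.03, 10.70 and 12.52 in the wildtype, in the same order of animals, and like Ldha it was higher in all 3 arrays of low spike-in signal. Over the 46 genes, 14, or 30.4%, were higher in all 3 arrays of low spike-in signal, where 17.3% of all genes were. The opposite order was found in 2 of the 46 and in 7.33% of all genes. Of 7 enzymes of the steps between the members, picked after their values were seen, 5 were among the 14. Because the 7 were picked in this way, that count cannot be set against the 17.3% of all genes. The gaps of these 5 were 0.60 in Pfkp, 0.72 in Tpi1, 0.87 in Pfkl, 1.80 in Pkm and 1.97 in Pgam1. Gpi and Pfkm lacked the order, with gaps of 0.42 and 0.34. Pgam2, of the same step as Pgam1 but not among the 7, had the opposite order, with a gap of -0.95.

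Beyond glycolysis, 0 of 15 genes of the pentose phosphate path and glycogen, 0 of 17 targets of hypoxia-inducible factors outside glycolysis, and 0 of 13 regulators were called by limma. No gene of these 3 lists had an unadjusted p under 0.05. All knockout values lay below all wildtype values in 1 of the 15 (Tkt), where 2.89% of all genes had this order. They lay above them in 1 of the 13 (Txnip), where 3.36% of all genes did. Tkt, the transketolase, was 12.39 ± 0.06 in the knockout and 12.66 ± 0.15 in the wildtype, and Ugp2, which makes the sugar donor for glycogen, was 9.26 ± 0.31 in the knockout and 9.53 ± 0.45 in the wildtype (SD, n = 3 each). Among the hypoxia targets Angptl4, an inhibitor of lipoprotein lipase, gave 16.62, 16.11 and 16.45 in knockout 28, 27 and 52, against 13.96, 15.60 and 16.15 in wildtype 34, 45 and 37 (difference 1.16, SE 0.53). Ndrg1 differed by -0.020 (SE 0.35). Epas1, which encodes the endothelial hypoxia-inducible factor HIF2A, differed by 0.48 (SE 0.43). Txnip, which restrains glucose uptake and rises with glucose, gave 19.76, 19.76 and 19.88 in the knockout, against 19.35, 19.66 and 19.62 in the wildtype, in the same order of animals, all within 0.5 of the highest value of the array, where differences may be compressed. The list medians of the differences were 0.26 for the hypoxia targets, 0.26 for the regulators and -0.13 for the pentose phosphate and glycogen genes.

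The members varied together to unequal degrees over the 6 arrays. Pearson's r was 0.97 between Slc2a3 and Ldha, 0.94 between Slc2a3 and Gapdh and 0.93 between Gapdh and Eno1, while Slc2a1 was closest to Aldoa (r = 0.90). With Slc2a3, r was 0.20 for Pfkfb3 and 0.33 for Hk2. These values describe 6 arrays that also share a spike-in class, sex and genotype, and carry no test. Genes most like each transporter were sought among the genes tested, passing over those with predicted names only (LOC, RGD and similar). Among the genes left, the 5 closest to Slc2a1 were Gng12, Tmx1, Kcnn4, Dbndd2 and Uso1. Gng12, a G protein gamma subunit, had an r of 0.996, and Tmx1, a redox protein of the endoplasmic reticulum, 0.991. Kcnn4, a calcium-activated potassium channel, and Dbndd2 each had 0.991, and Uso1, a tether of Golgi vesicles, 0.989. Gng12 shared the low value in wildtype 45, at 11.73 against 12.53 to 13.35 in the other arrays. Kcnn4, at 2.87 to 4.33, lay below the median of the background probesets in every array, so its values do not show expression. The 5 closest to Slc2a3 were Glul, the glutamine synthetase (r = 0.995), Hadhb of mitochondrial fatty acid oxidation (r = 0.995), Ankh, an exporter of pyrophosphate (r = 0.995), Nopchap1 (r = 0.994) and Epha2, a receptor for ephrins (r = 0.994). Epha2 shared the low value in wildtype 34, at 8.62, and values of 10.45, 10.85 and 10.91 in knockout 27, knockout 52 and wildtype 37. With so few arrays such values are common: 117 genes had an r above 0.95 with Slc2a1 and 223 with Slc2a3. Genes with predicted names only are not in these counts. None of the 10 genes named for likeness was among the members.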

How the data were processed

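Labelled DNA from 100 ng total RNA of each animal was hybridised to an Affymetrix array, per the labels' protocols. The deposited values are log2 expression per probeset. The submitters' processing notes name RMA and Affymetrix Expression Console as the authors' tools, without versions, and the log2 reading rests on that entry; the values reach 19.93, which is high for RMA. RMA makes the distributions of the arrays alike, which can hide a shift of most genes. Of 24834 probesets 1646 are controls and 15049 carry 1 gene symbol. For each of 15037 genes the probeset of highest mean was kept, and a gene was dropped as dim if that mean lay below 3.523, the 25th percentile over probesets.

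Genotypes were compared with limma 3.58.1 under R 4.3.3 (linear fit and moderated two-sided test, 6 arrays, Benjamini-Hochberg adjustment over 11515 genes, threshold 0.05). Sex was fitted beside genotype, and then with their interaction. The number of arrays limits the precision (median SE of a genotype difference 0.387). Limma's p-values set each difference against the spread between arrays, moderated over all genes. With 1 array per animal, that spread holds differences between animals and between arrays alike. Spike-in class divides the arrays at the midpoint of the range of their control means. Genes named are the members, Il33 and the 5 genes most like each transporter, passing over genes with predicted names only. Each pathway list adds the 2 with the highest mean and those whose genotypes are apart with a difference of at least 0.5. Others are marked as chosen after their values were seen. The members, lists and alternatives were chosen with earlier results of these data known. The fitting script was tested on simulated data.

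Alternatives were other filters on dim genes, other scalings, sex, spike-in class or the keratinocyte median as a covariate, females only, other variance options, array weights, the mean of a gene's probesets, and leaving out each array. Values within a spike-in class, and array orders under other scalings, were added after seeing the data.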

Additional observations from a re-analysis of the deposited data

How the results depend on the processing

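None of the 10 genes was called between genotypes under any of the 17 alternative fits, and their median difference ranged from -0.31 to 0.68. With 6 arrays, intervals as wide as -1.62 to 3.97 for Slc2a3 limit what can be seen. The count of all genes called was 0 without a filter on dim genes, with the filter at the 50th percentile, and in females only, and 0 to 1 on leaving out 1 array; the lone gene is Il33, whose adjusted p was 1.58e-04 to 0.661 over the alternatives. Signs turned as follows, none of them called. Eno1 was -0.065 after a further quantile normalization, and Hk2 was -0.105 in females only and -0.039 with array weights. With spike-in class as a block, Slc2a3 was -0.085, Aldoa -0.31 and Eno1 -0.51. With the keratinocyte median as a covariate, Slc2a3 was -0.59, Hk2 -0.031, Ldha -0.24, Gapdh -0.081, Aldoa -0.38 and Eno1 -0.63. Leaving out 1 array gave -0.39 to 1.68 for Slc2a1, 0.032 to 2.49 for Slc2a3, -0.52 to 0.042 for Hk1, -0.15 to 0.28 for Hk2, -0.088 to 0.60 for Pfkfb3, -0.59 to 0.17 for Pgk1, -0.090 to 0.98 for Ldha, 0.25 to 1.25 for Gapdh, -0.26 to 0.74 for Aldoa and -0.34 to 0.79 for Eno1. Between the sexes, 29 genes were called after centring on array medians and 27 without the genotype term, against 3. Leaving out 1 array gave 2 to 66, with 0 to 1 of the 10 genes. The 66 came without knockout 27, where sex and spike-in class coincide. The causes were not tested. No paired analysis was possible because the animal numbers of the genotypes do not match.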
